A study of Mus musculus with 8 samples.

Results

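The cyclic nucleotide brake on platelet activation was examined through 9 genes, Prkg1, Pde5a, Pde3a, Pde2a, Prkaca, Prkacb, Prkar1a, Prkar2b and Vasp, chosen by name among the 55487 genes of the deposited tables, and all 9 had enough counts to be tested. The samples were platelets of male mice aged 13 weeks, 4 libraries labelled Dnmt3a+/- and 4 labelled WT, 1 library from each mouse. Dnmt3a encodes an enzyme that places new methyl groups on DNA. The Dnmt3a+/- mice are heterozygous by label, and the WT mice are littermates. What the mutant allele consists of, and the strain, are not stated in the labels used. Leukocytes and red cells had been removed with beads against CD45 and Ter119. The question set by the design is whether the RNA of this brake differs between the labels.

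Platelets are held in a resting state by cyclic AMP and cyclic GMP. Prostacyclin from the vessel wall raises cyclic AMP through a Gs-coupled receptor and adenylyl cyclase, and nitric oxide raises cyclic GMP through soluble guanylyl cyclase. The nucleotides switch on protein kinase A (PKA) and protein kinase G (PKG), which phosphorylate actin regulators, calcium channels and their partners and so damp activation, while phosphodiesterases break the nucleotides down and release the brake. Platelets have no nucleus, and their RNA is carried over from megakaryocytes.

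Total counts ran from 15185218 to 22160394 per library. Dnmt3a was at 9.96, 11.5, 24.2 and 19.5 CPM (counts scaled to library size with trimmed-mean, TMM, factors) in the libraries labelled Dnmt3a+/- replicates 1 to 4, and at 21.1, 22.1, 19.8 and 18.2 CPM in WT replicates 1 to 4. Replicates 3 and 4 labelled Dnmt3a+/- thus had as much of the transcript as WT libraries, so directions below compare labels. The platelet markers Ppbp, Pf4 and Itga2b were abundant in all 8 libraries, and the 8 platelet markers took 3.68% to 4.23% of counts in the libraries labelled Dnmt3a+/- and 3.45% to 4.03% in WT.

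The 9 genes differed widely in level. TPM, a gene's share of transcripts, is corrected for transcript length and can be set side by side between genes. Over all 8 libraries Prkar2b averaged 452 ± 50.4 TPM, Prkar1a 133 ± 9.88, Vasp 52.4 ± 8.32, Prkaca 46.0 ± 4.77, Pde5a 33.5 ± 4.79, Pde2a 9.81 ± 2.04, Prkacb 5.64 ± 1.36, Pde3a 3.81 ± 0.68 and Prkg1 1.46 ± 0.37 (SD, n = 8). Prkar2b was thus rank 230 among all genes by mean TPM, and Prkg1 rank 4808, with 5539 genes at 1 TPM or more. The ranges of Prkar2b and Prkar1a, of Prkar1a and Vasp, of Pde5a and Pde2a, and of Pde3a and Prkg1 did not overlap over the 8 libraries. The ranges of the other neighbours did. Within libraries Vasp lay above Prkaca in 7 of 8, the exception being the library labelled Dnmt3a+/- replicate 1. Prkaca lay above Pde5a in 8 of 8. Pde2a lay above Prkacb in 7 of 8, except in WT replicate 2. Gm45837, a gene model that shares exons with Pde2a, took 331 counts in WT replicate 2, where Pde2a had 388, as described below. In the other libraries Pde2a was at 8.79 TPM or more, above the highest Prkacb value of 7.85 TPM. The overlap of the Pde2a and Prkacb ranges thus rests on WT replicate 2 alone. Their order was not compared with the TPM of Gm45837 added. Prkacb lay above Pde3a in 7 of 8, except in the library labelled Dnmt3a+/- replicate 4.

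**Figure D1:**
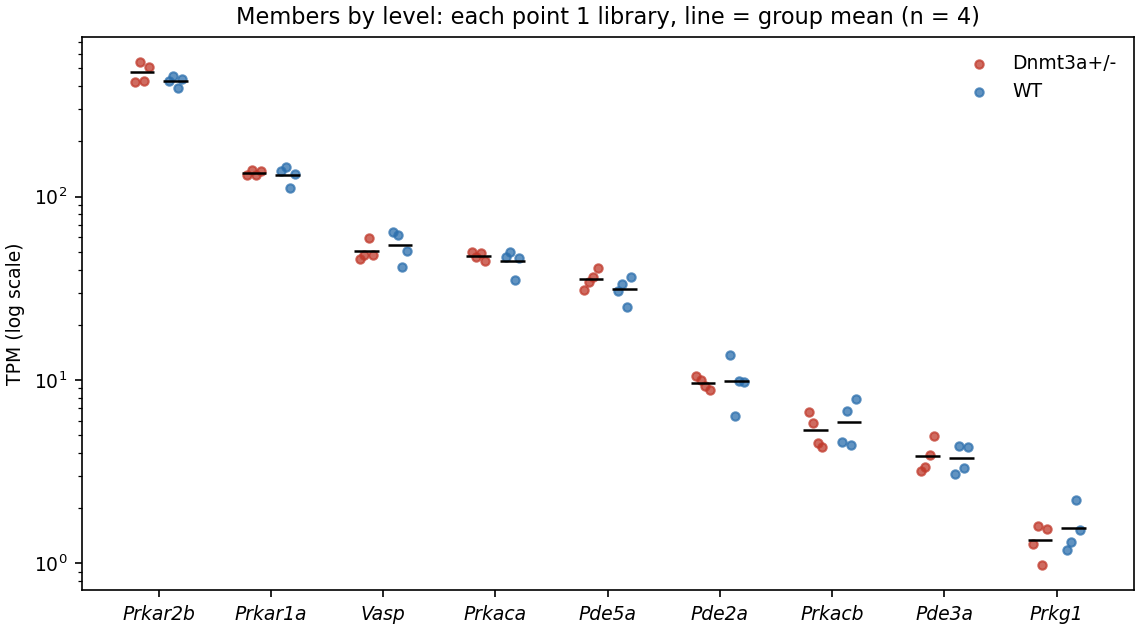
TPM of each of the 9 genes on a log scale, ordered by mean level, with 1 point per library, Dnmt3a+/- to the left of WT and a line at each group mean (n = 4). Levels run from 543 TPM for the highest Prkar2b library to 0.98 TPM for the lowest Prkg1 library, and the groups overlap for every gene.

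Between the labels no gene of the brake passed the threshold for a difference. By edgeR's quasi-likelihood test with Benjamini-Hochberg adjustment over 7362 genes, 0 of the 9 passed an adjusted p of 0.05, where 0% of all tested genes did. At an unadjusted p under 0.05 there were also 0 of 9, against 4.92% of all tested genes, and DESeq2 and limma on log2 TPM likewise called 0 of 9. The CPM values of the labels overlapped for 9 of 9 genes, and 2.54% of all tested genes had none in common. Of the 9 log2 fold changes (Dnmt3a+/- over WT) 5 were positive, where 49.0% of all tested genes were, and their median was 0.0024 against -0.0050 over all tested genes. The smallest edgeR adjusted p among the 9 was 0.998. The 95% intervals of the fold changes ran at the widest from 0.67 to 1.32 (Pde2a) and at the narrowest from 0.89 to 1.14 (Prkar1a).

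**Figure D2:**
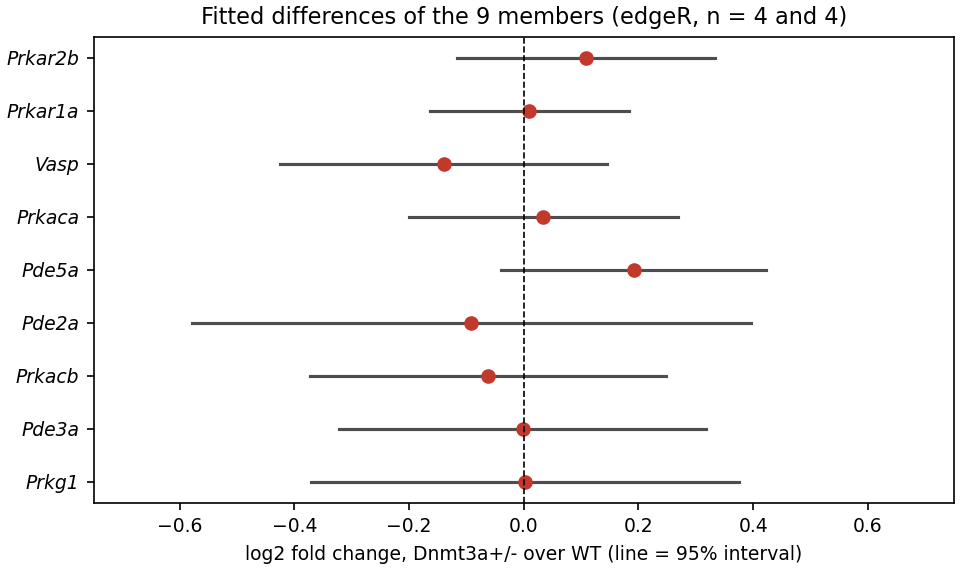
Fitted log2 fold change of each gene, Dnmt3a+/- over WT, as a point with its 95% interval as a line (edgeR, n = 4 and 4). All 9 intervals cross 0, with Pde5a highest at 0.19 and Vasp lowest at -0.14.

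PKA is a tetramer in which regulatory subunits hold catalytic subunits inactive until cyclic AMP binds them. Prkar2b encodes the type II beta regulatory subunit, which is also abundant in fat and brain, and lies at chr12:31958476-32061296 on the minus strand (GRCm38; ENSMUSG00000002997). It is the most abundant of the 9 transcripts, so the promoter at the RefSeq start nearest its annotated 5′ end is shown, 250 bases upstream of the start site (chr12:32061278-32061527, minus strand, GRCm38.p6, from RefSeq), in the direction of transcription with each CpG, the dinucleotide that DNA methyltransferases act on, in capitals.
Prkar2b: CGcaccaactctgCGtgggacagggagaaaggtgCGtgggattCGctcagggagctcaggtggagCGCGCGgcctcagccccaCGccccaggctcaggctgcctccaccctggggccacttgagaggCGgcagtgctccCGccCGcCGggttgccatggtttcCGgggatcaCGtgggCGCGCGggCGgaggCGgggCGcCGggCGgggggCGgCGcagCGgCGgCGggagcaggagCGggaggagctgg
This stretch holds 28 CpG and 75.6% G and C, where the median of 32851 such stretches over all genes is 6 CpG. Methylation was not measured here. Prkar2b was at 1079, 1348, 1039 and 1227 CPM in the libraries labelled Dnmt3a+/- replicates 1 to 4, and at 1075, 1041, 1140.5 and 1096 CPM in WT replicates 1 to 4. Replicates 2 and 4 of the libraries labelled Dnmt3a+/- were above every WT value and replicates 1 and 3 lay within or below the WT range. Its log2 fold change was 0.11 (SE 0.10, edgeR adjusted p = 0.998).

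Prkar1a encodes the type I alpha regulatory subunit, found in most tissues (chr11:109649405-109669656, plus strand; ENSMUSG00000020612). It was the steadiest of the 9, at 395, 399, 375 and 382 CPM in the libraries labelled Dnmt3a+/- and 407.5, 383, 372 and 378 CPM in WT. The SD of its log2 CPM over the 8 libraries was 0.047, where the median over all tested genes, of any level, was 0.30. Its log2 fold change was 0.0097 (SE 0.079, edgeR adjusted p = 0.998). One of its 6 annotated start windows holds the letters TGACGTCA, the palindrome known as the cyclic AMP response element, and is shown for that reason (chr11:109650699-109650948, plus strand, GRCm38.p6, RefSeq), with the element in capitals.
Prkar1a: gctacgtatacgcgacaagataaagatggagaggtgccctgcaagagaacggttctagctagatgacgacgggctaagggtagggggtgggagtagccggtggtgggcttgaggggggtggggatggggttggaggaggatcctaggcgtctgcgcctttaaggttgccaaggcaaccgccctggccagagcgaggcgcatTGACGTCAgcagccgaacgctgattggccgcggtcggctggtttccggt
The element ends 41 bases before that start site. TGACGTCA was searched on both strands, which are the same for a palindrome, in the 250 bases upstream of every annotated start. It was found in 1.55% of the 32851 windows and in 1 of the 22 windows of the brake genes. RefSeq windows were matched for 8 of the 9 genes and not for Pde3a. Also searched on both strands were AGATAA, the motif of erythroid and megakaryocyte zinc finger factors such as Gata1, found in 5 of the 22 windows (of Pde2a, Prkar1a and Prkg1) and in 9.99% of all windows, and CGGAAG, an ETS factor motif, found in 5 of the 22 (of Pde2a, Pde5a, Prkacb, Prkar2b and Vasp) and in 13.6% of all. Windows of 1 gene can overlap, and the binding of any factor was not measured.

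The catalytic subunits come from Prkaca (chr8:83972993-83996443, plus strand; ENSMUSG00000005469) and Prkacb (chr3:146729574-146812990, minus strand; ENSMUSG00000005034). Prkaca was at 85.3, 73.4, 82.3 and 67.7 CPM in the libraries labelled Dnmt3a+/-, and at 81.3, 76.0, 67.6 and 76.4 CPM in WT. Each set holds both high and low libraries and they overlap throughout. Prkaca had a log2 fold change of 0.034 (SE 0.11, edgeR adjusted p = 0.998). Prkacb was at 21.5, 18.3, 15.7 and 14.6 CPM in the libraries labelled Dnmt3a+/-, and at 17.3, 19.4, 18.6 and 17.9 CPM in WT. The libraries labelled Dnmt3a+/- spread on both sides of the narrower WT range, and the log2 fold change was -0.063 (SE 0.14, edgeR adjusted p = 0.998).

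Set against each other per length, the PKA subunits were far from equal at the RNA level. Prkaca had 7.41 to 10.9 times the TPM of Prkacb in the libraries labelled Dnmt3a+/- and 5.88 to 10.1 times in WT. The lowest ratio was in WT replicate 4, where the transcript length assumed for Prkacb was shortest, as described below. Prkar2b had 3.21 to 3.88 times the TPM of Prkar1a in the libraries labelled Dnmt3a+/-, against 3.09 to 3.52 times in WT. The summed TPM of these regulatory subunits was 11.6 ± 1.78 times that of the catalytic subunits in the libraries labelled Dnmt3a+/- and 11.2 ± 1.01 times in WT (SD, n = 4). Counting the remaining regulatory genes Prkar1b and Prkar2a, at 0 to 0.28 and 0.20 to 0.93 TPM, left the ratio at 11.6 in the libraries labelled Dnmt3a+/- and 11.2 in WT. These are ratios of transcripts, and protein was not measured.

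In PKG the cyclic GMP-binding part and the kinase part lie on the same protein chain. Prkg1 (chr19:30564489-31765033, minus strand; ENSMUSG00000052920) makes PKG type I, the form of platelets and smooth muscle, from alternative first exons. As the least abundant of the 9, its promoter is shown beside that of Prkar2b, again with CpG in capitals (chr19:31765034-31765283, minus strand, GRCm38.p6, RefSeq).
Prkg1: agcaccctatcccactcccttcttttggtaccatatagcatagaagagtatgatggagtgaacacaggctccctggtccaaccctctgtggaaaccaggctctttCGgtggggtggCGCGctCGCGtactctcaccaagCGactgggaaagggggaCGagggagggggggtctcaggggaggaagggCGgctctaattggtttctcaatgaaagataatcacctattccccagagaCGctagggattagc
It holds 9 CpG and 55.2% G and C, and the window at the other annotated start of Prkg1 holds 16 CpG. Between Prkar2b and Prkg1 in level, CpG were counted in the window nearest the annotated 5′ end. In falling order of TPM they numbered 4 for Prkar1a, 12 for Vasp, 25 for Prkaca, 22 for Pde5a, 2 for Pde2a and 30 for Prkacb. These numbers depend on the window taken. Over all annotated starts they ran from 3 to 37 in 6 windows of Prkar1a and from 2 to 19 in 5 of Pde2a. They ran from 1 to 30 in 3 windows of Prkacb and were 25 and 2 in the 2 of Prkaca. A link of CpG number to level was not tested. Gene counts do not tell which start was used. Prkg1 was at 8.11, 7.49, 5.28 and 8.25 CPM in the libraries labelled Dnmt3a+/-, and at 7.07, 7.41, 8.09 and 6.52 CPM in WT. The lowest value was replicate 3 of the libraries labelled Dnmt3a+/-, and the remaining 7 lay between 6.52 and 8.25. Its log2 fold change was 0.0024 (SE 0.17, edgeR adjusted p = 0.999). The low value rests on 87 counts, for which counting error alone gives a 95% Poisson interval of 69.7 to 107 counts. Prkg2, the gene of PKG type II, had 0 to 2 counts per library.

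In TPM, Prkg1 stood out in WT replicate 3, at 2.22 TPM against 1.19 to 1.53 in the other WT libraries and 1.27, 1.59, 0.98 and 1.55 TPM in the libraries labelled Dnmt3a+/-, although its CPM there was ordinary. The count divided by the TPM gives the transcript length that the quantification assumed. Scaled on genes with 1 annotated transcript, this length was 3745 bases for Prkg1 in WT replicate 3 and 5136 to 7339 bases in the other 7 libraries. The Prkg1 transcripts annotated in GENCODE M21 run from 479 to 6976 bases. Prkacb showed the same kind of shift, with 2743 bases in WT replicate 4 and 3671 to 4340 elsewhere. For Pde2a, Pde3a, Prkar1a, Prkar2b and Vasp the highest and lowest implied lengths were within 1.03 times of each other. Differences in TPM between libraries for Prkg1 and Prkacb therefore include a change in the assumed isoforms as well as in reads.

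Phosphodiesterases end the signal. Pde5a (chr3:122728947-122859374, plus strand; ENSMUSG00000053965) encodes the cyclic GMP-specific enzyme that sildenafil inhibits. It was at 198, 209.7, 226 and 244 CPM in the libraries labelled Dnmt3a+/-, and at 177, 189, 179 and 222 CPM in WT. All 4 libraries labelled Dnmt3a+/- lay above the lowest 3 WT values, and WT replicate 4 lay among them. The log2 fold change was 0.19 (SE 0.10), a fold of 1.14 with a 95% interval of 0.97 to 1.34, and did not pass (edgeR unadjusted p = 0.095, adjusted p = 0.998). It had the smallest unadjusted p of the 9.

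Pde3a (chr6:141249269-141507448, plus strand; ENSMUSG00000041741) encodes a cyclic AMP-hydrolysing enzyme that cyclic GMP inhibits, the platelet target of cilostazol. It was at 36.2, 36.3, 42.6 and 52.3 CPM in the libraries labelled Dnmt3a+/-, and at 34.8, 44.0, 42.2 and 46.6 CPM in WT. The highest value was replicate 4 of the libraries labelled Dnmt3a+/- and the lowest was WT replicate 1, with a log2 fold change of -0.0015 (SE 0.15, edgeR adjusted p = 0.999). An antisense gene model, Gm28523, shares exon sequence with Pde3a on the other strand and held 22 to 54 counts per library, where Pde3a held 546 to 1204. The library kit keeps strand, and the strand setting used in counting is not stated.

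Pde2a (chr7:101421691-101512827, plus strand; ENSMUSG00000110195) encodes an enzyme that breaks down both nucleotides and is stimulated by cyclic GMP. It was at 38.9, 35.3, 33.2 and 30.03 CPM in the libraries labelled Dnmt3a+/-, and at 50.6, 21.0, 40.7 and 34.2 CPM in WT. The WT libraries held both the highest value, in replicate 1, and the lowest, in replicate 2, and the means were 34.4 ± 3.72 CPM in the libraries labelled Dnmt3a+/- and 36.6 ± 12.4 CPM in WT (SD, n = 4). The log2 fold change was -0.092 (SE 0.22, edgeR adjusted p = 0.998).

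The low Pde2a value goes with reads given to another gene model. Gm45837 (chr7:101410886-101512819, plus strand; ENSMUSG00000030653) is annotated on the same strand and shares 3955 of its 4139 exon bases with Pde2a, 95.6% of its own exons and 64.3% of those of Pde2a. It had 331 counts in WT replicate 2, where Pde2a had 388. It had 9 counts in the library labelled Dnmt3a+/- replicate 4 and 0 in the remaining 6 libraries. With the counts of both models summed, a setting chosen after the data were seen, the values were 38.9, 35.3, 33.2 and 30.4 CPM in the libraries labelled Dnmt3a+/-, and 50.6, 38.9, 40.7 and 34.2 CPM in WT. The summed means were 34.5 ± 3.57 CPM in the libraries labelled Dnmt3a+/- and 41.1 ± 6.88 CPM in WT (SD, n = 4), and WT replicate 2 lay inside the range of the other WT libraries. The log2 fold change of the sum was -0.25 (SE 0.14, 95% interval -0.56 to 0.048), which did not pass (edgeR unadjusted p = 0.0906, adjusted p = 0.998). The estimate thus moved by more than 1.5 times with this choice, while the call did not change.

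**Figure D3:**
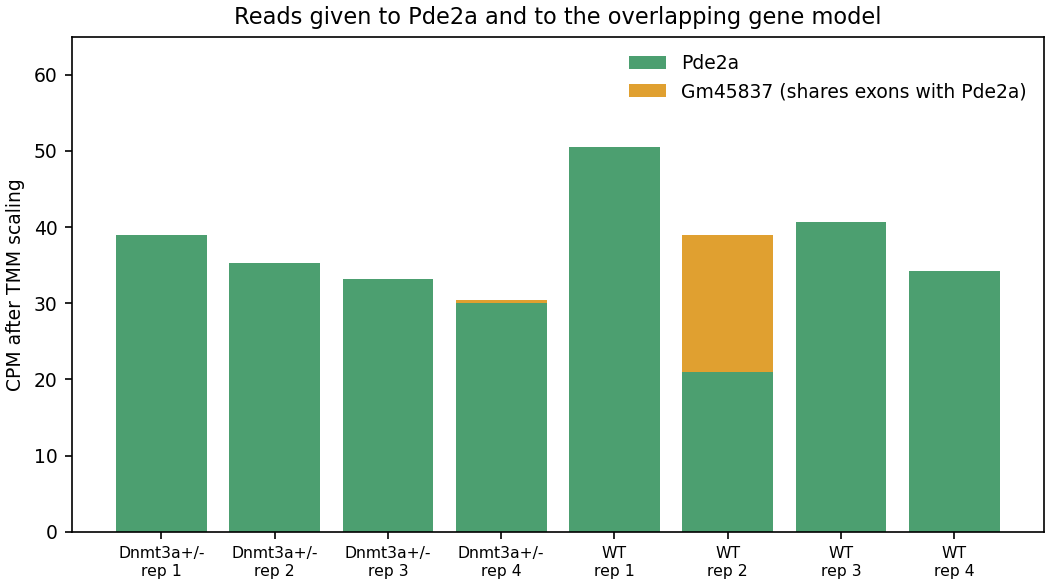
CPM after TMM scaling given to Pde2a (green) and to the gene model Gm45837 that shares its exons (orange), stacked, in each library, Dnmt3a+/- left of WT. Only in WT replicate 2 does Gm45837 take a large part, 17.9 CPM beside 21.0 CPM for Pde2a, and the stacked bar of that library reaches 38.9 CPM.

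Among all 24 phosphodiesterase genes, Pde5a gave the largest share of transcripts, 45.9% ± 2.66 of their summed TPM in the libraries labelled Dnmt3a+/- and 44.0% ± 2.57 in WT (SD, n = 4). Pde7b, a cyclic AMP-specific enzyme, gave 18.4% ± 3.23 in the libraries labelled Dnmt3a+/- and 17.9% ± 5.84 in WT. Pde2a as deposited gave 12.6% ± 1.95 in the libraries labelled Dnmt3a+/- and 14.2% ± 4.76 in WT, with 8.32% in WT replicate 2. With the TPM of Gm45837 added to it and to the sum, also chosen after the data were seen, it gave 12.6% ± 1.91 in the libraries labelled Dnmt3a+/- and 15.7% ± 2.84 in WT, with 14.4% in WT replicate 2. Pde3a gave 4.94% ± 0.74 in the libraries labelled Dnmt3a+/- and 5.34% ± 0.85 in WT. Together Pde5a, Pde3a and Pde2a took 60.0% to 65.7% of the phosphodiesterase TPM in the libraries labelled Dnmt3a+/- and 57.4% to 69.4% in WT, or 60.2% to 69.4% in WT with Gm45837 added. Pde5a had 8.27 to 10.2 times the TPM of Pde3a in the libraries labelled Dnmt3a+/-, against 7.55 to 9.91 times in WT. Pde6h, best known as a cone photoreceptor subunit, reached 4.49% to 15.1% of the TPM from only 21 to 49 counts per library, so its share is imprecise. Of the 24 genes 10 were tested, 5 with positive and 5 with negative log2 fold changes (median 0.065), and 0 passed by edgeR over all genes.

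**Figure D4:**
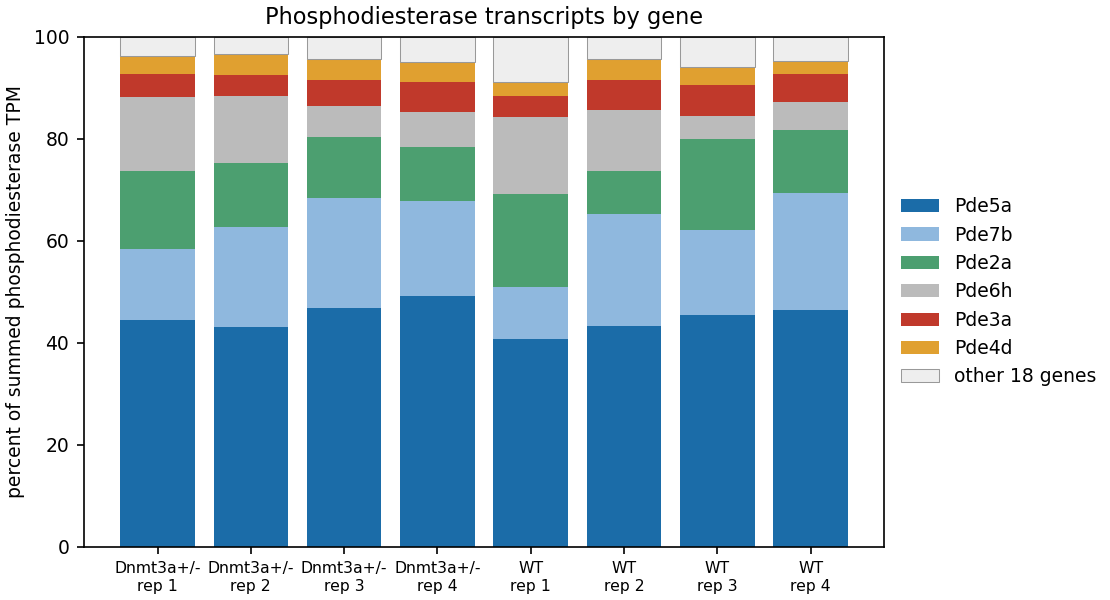
Percent of the summed TPM of 24 phosphodiesterase genes taken by each of 6 genes and by the other 18 together, in each library, Dnmt3a+/- left of WT. Pde5a takes 40.7% to 49.2% in every library and is the largest share in all 8.

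Vasp (chr7:19256929-19271817, minus strand; ENSMUSG00000030403) encodes an actin regulator that PKA and PKG both phosphorylate and whose phosphorylation is read in the clinic as a measure of P2Y12 blockade. It was at 88.4, 88.4, 110.4 and 85.5 CPM in the libraries labelled Dnmt3a+/-, and at 124, 105.8, 88.7 and 92.5 CPM in WT. Replicates 1, 2 and 4 of the libraries labelled Dnmt3a+/- lay just under every WT value and replicate 3 lay above 3 of the 4. The log2 fold change was -0.14 (SE 0.13, 95% interval -0.43 to 0.15, edgeR adjusted p = 0.998). Its family members Evl and Enah were lower in level, at 5.15 ± 2.14 and 9.96 ± 0.47 TPM in the libraries labelled Dnmt3a+/- and 3.83 ± 0.77 and 8.75 ± 3.62 TPM in WT, where Vasp had 50.4 ± 6.01 TPM in the libraries labelled Dnmt3a+/- and 54.3 ± 10.7 in WT (SD, n = 4).

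The members did not shift as a block from library to library. Over all 8 libraries, 8 of the 9 had an SD of log2 CPM below 0.30, the median of all tested genes. These ran from 0.047 for Prkar1a to 0.21 for Prkg1, and Pde2a was above the median at 0.37. That median covers genes of every level. Spread can depend on level, and genes of like level were not compared, so these values do not show that the 9 are unusually steady. On the scale log2(CPM + 0.5), the SD was 0.22 for the sum of Pde2a and Gm45837 and 0.36 for Pde2a alone. In the library labelled Dnmt3a+/- replicate 4, Pde3a and Pde5a lay 0.33 and 0.25 above their means on the log2 scale while Prkacb lay 0.28 below its own. In WT replicate 1, Vasp was 0.35 above its mean while Pde3a was 0.25 below.

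**Figure D5:**
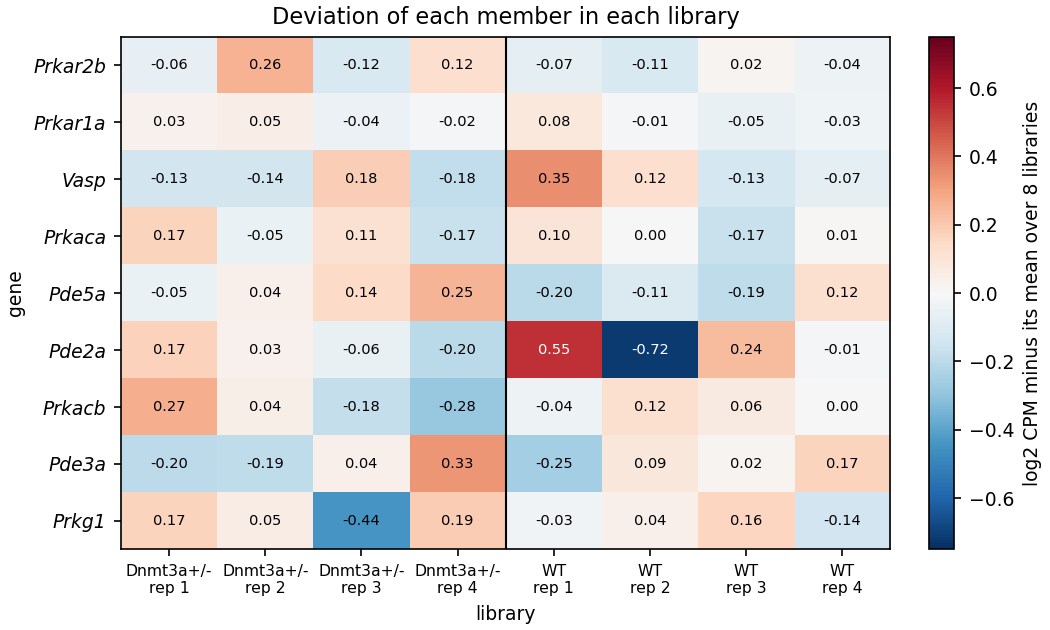
Log2 CPM of each gene minus its mean over the 8 libraries, in each library, Dnmt3a+/- left of WT. The darkest cells belong to Pde2a in WT replicates 1 and 2 (0.55 and -0.72) and to Prkg1 in the library labelled Dnmt3a+/- replicate 3 (-0.44), and no gene has one colour for each label.

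For the 3 most variable members, the genes of closest log2 CPM pattern over the 8 libraries were sought among genes of at least 10 CPM. Closeness was the root mean square difference after centring, and whether it exceeded chance was not tested. The genes named had the smallest differences, so they lie below the medians by construction. For Pde3a they were Npepps (0.084), Fam13b (0.098) and Cul4b (0.099), where the median over 2741 genes was 0.26. For Prkg1 they included Uqcrc2 (0.11) and Tmed8 (0.13), against a median of 0.28. For Pde2a as deposited they were Haus8 (0.16), Tbca (0.19) and Aamdc (0.19), against a median of 0.37, and that pattern includes the low value of WT replicate 2.

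Upstream of the kinases, 19 receptor, G protein and cyclase genes were listed as raising cyclic AMP. Of these 5 had enough counts to be tested, and the other 14 had at most 20 counts in any library. The untested genes include Adora1, an adenosine receptor that lowers cyclic AMP, at 0 to 7 counts. Ptgir, the prostacyclin receptor, had 24.5 ± 2.96 TPM in the libraries labelled Dnmt3a+/- and 22.2 ± 2.20 in WT, and Gnas, which encodes the stimulatory G protein alpha subunit, 2995 ± 278 TPM in the libraries labelled Dnmt3a+/- and 3047 ± 579 in WT (SD, n = 4). Adcy6, an adenylyl cyclase, had 17.0 ± 1.96 TPM in the libraries labelled Dnmt3a+/- and 14.0 ± 3.23 in WT, with a log2 fold change of 0.25 (SE 0.13, edgeR adjusted p = 0.987). The 5 tested genes split into 3 with a positive and 2 with a negative fold change (median log2 value 0.10). In the opposing list, P2ry12, the ADP receptor that lowers cyclic AMP and is blocked by clopidogrel, had 1872 ± 367 TPM in the libraries labelled Dnmt3a+/- and 1470 ± 230 in WT. Its log2 fold change was 0.31 (SE 0.15), the smallest unadjusted p of all the pathway genes (edgeR unadjusted p = 0.063, adjusted p = 0.987). The G protein genes Gnai2 and Gnaz of the same list had 457 ± 49.4 and 12.6 ± 1.57 TPM in the libraries labelled Dnmt3a+/-, against 464 ± 76.8 and 10.9 ± 1.61 in WT. Of 7 genes 5 were tested, 3 positive and 2 negative (median 0.066).

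In the cyclic GMP arm the soluble guanylyl cyclase subunits were unequal. The enzyme is a heterodimer of an alpha and a beta chain. Gucy1b1 had 133 ± 12.7 TPM in the libraries labelled Dnmt3a+/- and 117 ± 23.7 in WT, and Gucy1a1 5.49 ± 0.28 TPM in the libraries labelled Dnmt3a+/- and 5.35 ± 1.90 in WT (SD, n = 4). Gucy1b1 thus had 22.1 to 25.6 times the TPM of Gucy1a1 in the libraries labelled Dnmt3a+/- and 16.5 to 32.4 times in WT. The transcript length assumed for Gucy1a1 was 3463 and 3643 bases in WT replicates 2 and 3, which had the lowest ratios, and 4723 and 4726 bases in WT replicates 1 and 4, which had the highest, so this spread includes a change in the assumed isoforms. Among the libraries labelled Dnmt3a+/- that length was 3620 bases in replicate 4 and 4716 to 4756 bases in the others. Both subunit genes had positive log2 fold changes, each 0.17 (SE 0.11 for Gucy1b1 and 0.15 for Gucy1a1, edgeR adjusted p = 0.998 for both). Npr1, a natriuretic peptide receptor that makes cyclic GMP, had 2 to 21 counts per library and was not tested.

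Anchors, exporters and substrates covered a wide range of levels. Msn, moesin, was at 141 ± 3.86 TPM in the libraries labelled Dnmt3a+/- and 148 ± 14.1 in WT, while the A-kinase anchors Akap7 and Akap13 had 7.87 ± 1.53 and 1.13 ± 0.23 TPM in the libraries labelled Dnmt3a+/-, against 7.22 ± 2.84 and 0.99 ± 0.48 in WT. Abcc4, a transporter that exports cyclic AMP, had 13.2 ± 2.83 TPM in the libraries labelled Dnmt3a+/- and 12.6 ± 2.90 in WT, Abcc5, a related exporter, 22.7 ± 2.33 against 17.97 ± 5.84 in WT, and the cyclic AMP-binding Popdc2 1.00 ± 0.47 against 1.01 ± 0.10 in WT. The substrate Rasgrp2, an activator of Rap1, had 1996 ± 265 TPM in the libraries labelled Dnmt3a+/- and 1994 ± 301 in WT. Rgs18, a brake on Gq and Gi signals, had 1926 ± 427 against 1578 ± 313 in WT, and Zyx, zyxin, 2208 ± 492 against 2288 ± 641 in WT. Mrvi1, the PKG substrate that ties the kinase to the calcium store channel, had 184 ± 18.1 TPM in the libraries labelled Dnmt3a+/- and 191 ± 36.3 in WT. That was 101 to 200.4 times the TPM of Prkg1 in the libraries labelled Dnmt3a+/- and 72.3 to 204 times in WT. The lowest ratio was in WT replicate 3, where the transcript length assumed for Prkg1 was 3745 bases, the shortest of all libraries. Among partners of VASP in actin and adhesion, Actg1 had 4285 ± 469 TPM against 4590 ± 705 in WT and Pfn1 624 ± 60.0 against 614 ± 91.6 in WT (SD, n = 4).

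Over all 9 pathway lists, 71 of 127 genes were tested, 38 with positive and 33 with negative log2 fold changes (median 0.0097, against -0.0050 over all tested genes). By edgeR 0 of the 71 passed over all genes, and 0 had an unadjusted p under 0.05, where 4.92% of all tested genes did. The labels' CPM values overlapped in all 71 tested genes of the lists, where they did not overlap in 2.54% of all tested genes. The list medians ran from -0.071 for 10 anchoring proteins to 0.17 for the 2 tested genes of cyclic GMP synthesis. For 8 PKA and PKG genes the median was 0.0072, for 22 substrates 0.010, for 9 partners of VASP -0.063, and for 3 effectors and exporters 0.051. In a bulk sample, fewer cells of a type and less RNA per cell cannot be told apart.

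RNA of other cell types was read from marker lists, because smooth muscle, endothelium, fat and leukocytes also express some of these genes. Smooth muscle markers took 0.00056% to 0.00080% of counts in the libraries labelled Dnmt3a+/- and 0.00068% to 0.0014% in WT, and all 6 had counts in at least 1 library. Endothelial markers took 0.0040% to 0.0055% in the libraries labelled Dnmt3a+/- and 0.0047% to 0.0067% in WT. The 7 adipocyte markers took 0.00060% to 0.0020% in the libraries labelled Dnmt3a+/- and 0.0016% to 0.0046% in WT, and the 8 hepatocyte markers 0.00028% to 0.013% in the libraries labelled Dnmt3a+/- and 0.00165% to 0.13% in WT. Erythroid markers took 2.03% of counts in WT replicate 1, against 0.318% to 0.486% in the libraries labelled Dnmt3a+/- and 0.203% to 0.312% in the other WT libraries. In CPM that library had the highest Vasp, Pde2a and Prkar1a of all 8 and the lowest Pde5a and Pde3a. Among leukocyte lists, the monocyte and macrophage list took the most, 0.341% to 0.521% of counts in the libraries labelled Dnmt3a+/- and 0.372% to 0.648% in WT, nearly all of it from Lyz2, the lysozyme gene, with 53966 to 103615 counts per library. The 6 T and NK cell markers had 57 to 106 counts per library, of which Nkg7 alone gave 53 to 106, while Cd3e and Cd3g were at 0 in all 8. Neutrophil markers had 2 to 28 counts per library, with Camp and Elane at 0 throughout, and B cell markers 0 to 11. Heart muscle markers had 13 to 84 counts. The mean log2 difference in share, Dnmt3a+/- minus WT, was -4.08 for hepatocyte, -1.69 for neutrophil and -1.17 for adipocyte markers (exact two-sided permutation p = 0.114, 0.0857 and 0.0571). It was positive for B cell (1.70), heart muscle (1.15) and platelet markers (0.034), with exact two-sided permutation p = 0.171, 0.0857 and 0.714. For the remaining lists it lay between -0.31 and -0.019. With 4 libraries against 4 the smallest possible p is 0.0286, which adjusted over 11 lists is 0.314 for 1 list alone, so the adjusted values cannot show whether the shares differ. The part of these cells in the values of the brake genes was not tested.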

How the data were processed

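Platelet RNA was sequenced in 8 libraries. The library kit was stranded and selected mRNA, per the labels' protocols. The submitters' processing notes name mm10 and the tools RSEM, STAR, cutadapt and DESeq2, with no versions. The authors deposited an estimated count and a TPM per gene. The estimated counts are whole numbers as deposited, and rounding changed none. Reads shared between overlapping genes were divided by the authors' quantification.

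Counts were fitted with edgeR 4.0.16 under R 4.3.3 (TMM, filterByExpr with minimum count 10 and minimum total 15, glmQLFit, glmQLFTest) over 7362 genes, threshold 0.05. Depth was 15185218 to 22160394 counts per library. Standard errors came from fold change and F value. The Poisson interval of Prkg1 covers counting error only, while the intervals of the fold changes also include the spread between libraries. Shares of marker counts were compared with a two-sided exact permutation test (70 arrangements), adjusted over 11 lists. Alternatives were other factors and filters, DESeq2 1.42.0, limma 3.58.1 on log2(TPM + 0.1) and log2(TPM + 1), a replicate block and leaving out each library. No library repeated another (chi-square per degree of freedom at least 12.15 in every pair). The test was tried on simulated counts.

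The members and lists were chosen with earlier results of these data known. The rule named the members, up to 3 genes of highest TPM per list and the closest patterns, of which 1 is not reported here. Evl, Enah, Mrvi1, Prkg2, Prkar1b, Prkar2a, Pde6h, Gm28523 and Gm45837 were named after their values were seen. One list symbol of 127 had no match. Coordinates are from GENCODE M21 (GRCm38, also called mm10).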

Additional observations from a re-analysis of the deposited data

Results flagged for a closer look

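Among 76 sets of 4 libraries searched for a library far from the other 3, 4 were found, where chance gives about 1 in 20. Vasp was at 110.4 CPM in the library labelled Dnmt3a+/- replicate 3, against 85.5 to 88.4 CPM in the other 3 with that label. Erythroid markers took 2.03% of counts in WT replicate 1, against 0.203% to 0.312% in the other WT libraries. T and NK cell markers took 0.000647% of counts in the library labelled Dnmt3a+/- replicate 1, against 0.000415% to 0.000427% in the others with that label, where Nkg7 had 99 counts, Ncr1 had 2, and Cd3e, Cd3d, Cd3g and Trac had 0. Smooth muscle markers took 0.00056% in the library labelled Dnmt3a+/- replicate 2, against 0.000785% to 0.0008% in the others. A link between these values and the brake genes was not tested.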

How the results depend on the processing

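Under 18 alternatives, 0 of the 9 brake genes and 0 pathway genes passed, and the median of the 9 stayed between -0.013 and 0.037. The count over all genes moved from 0 to 250 without a filter on low counts (246 lower in the libraries labelled Dnmt3a+/-), to 9 with DESeq2, to 1 with a robust fit, and over 0 to 135 when each library was left out (135 without WT replicate 1, of which 134 were lower, and 1 without the library labelled Dnmt3a+/- replicate 2). The cause was not tested. Pde5a, Prkar2b and Vasp kept their sign under every alternative run, but leaving out each library gave 0.14 to 0.27 for Pde5a, 0.027 (without the library labelled Dnmt3a+/- replicate 2) to 0.17 for Prkar2b, and -0.22 (without the library labelled Dnmt3a+/- replicate 3) to -0.039 (without WT replicate 1) for Vasp. Small values changed sign. Pde3a turned to 0.025 with upper-quartile factors, 0.013 without a filter, and 0.022 and 0.0185 with limma on log2(TPM + 0.1) and log2(TPM + 1). Prkg1 turned to -0.0006 with RLE factors, and to -0.18 and -0.12 with limma on the same TPM scales. Pde2a turned to 0.0088 and 0.0042 there, and was -0.25 with the counts of Gm45837 added. Leaving out each library gave -0.28 to 0.10 for Pde2a, -0.13 to 0.071 for Pde3a, -0.012 to 0.092 for Prkaca, -0.17 to 0.015 for Prkacb, -0.013 to 0.037 for Prkar1a, and -0.066 to 0.14 for Prkg1. Same-numbered libraries did not deviate together (correlations -0.037, 0.081, 0.16 and -0.17), and differently numbered libraries gave -0.24 to 0.23. These correlations cannot decide whether the numbers pair the mice, because a pairing need not show in the counts of all genes. With the replicate block 0 genes passed and Prkg1 was at -0.011. Pde5a was at 0.19 with that block (edgeR unadjusted p = 0.032, adjusted p = 0.721). Without WT replicate 4, Pde5a was at 0.27 (edgeR unadjusted p = 0.026, adjusted p = 0.824). Its unadjusted p was 0.0525 or more under every other alternative. Depth limits Prkg1 most, at 87 to 190 counts per library.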
